A study of Rattus norvegicus with 11 samples.

Results

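Matrix metalloproteinases (MMPs), the ADAMTS proteases with their ADAMTS-like relatives, and the tissue inhibitors of metalloproteinases (TIMPs) were followed in rat bone marrow mesenchymal stem cells (BMSCs), the adherent stromal cells of marrow. Members were all genes of the expression table named Mmp with a number, beginning with Adamts, or named Timp1 to Timp4. This took 49 of 32883 genes, made up of 22 MMP, 19 ADAMTS, 4 ADAMTS-like and 4 TIMP genes. Each of the 11 libraries was polyadenylated RNA from BMSCs at day 3, and by title 4 were control, 3 imDC and 4 IRDC. According to the series text, BMSCs received medium named mDC-CM, read here as conditioned medium of dendritic cells, that was unirradiated (0 Gy) or irradiated (8 Gy), and were compared with controls. No dose stands in the library titles, so that imDC is the unirradiated and IRDC the irradiated arm is read from the names alone. Strain, age, the number of donor animals and how the medium was made are not given in the sources used here. Libraries are titled biological replicates, with no word on whether each had its own animal or culture, so p-values here reflect only how far these libraries scatter, and part of that scatter may be technical.

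MMPs are zinc-dependent endopeptidases, mostly secreted as inactive proenzymes, and between them they cut collagens, gelatin, proteoglycans and elastin. ADAMTS proteases are secreted enzymes bound to the matrix that cut proteoglycans such as versican and aggrecan, trim procollagen, or act on fibrillin microfibrils. ADAMTS-like proteins share their matrix-binding modules but have no protease domain. TIMPs bind the active site of MMPs, and TIMP3 is also an inhibitor of ADAMTS proteases. In marrow stroma this system remodels the matrix around bone-forming and blood-forming cells.

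Levels are FPKM (fragments per kilobase of transcript, relative to library size), which corrects for transcript length, and are given as mean ± SD over the 4 control, 3 imDC and 4 IRDC libraries. A change is the difference of log2(FPKM + 1) with its standard error (SE) from limma, which understates changes of low genes, and a gene was called higher or lower at a Benjamini-Hochberg adjusted p below 0.05 over the 12521 genes that reached 1 FPKM in 3 or more libraries. Fold values are ratios of mean FPKM. Reads recovered from the FPKM steps gave depths of 17.8 to 25.5 M reads per library. Of the 7 stromal cell markers all were above 1 FPKM in every group, with a summed level of 3075 to 3197 FPKM in control, 3694 to 3729 in imDC and 4045 to 4120 in IRDC. Genes of macrophages or dendritic cells were also present, with 7 of 11 at or above 1 FPKM in each group and a summed level of 702 to 721 FPKM in control, 632 to 659 in imDC and 291 to 300 in IRDC. Summed chondrocyte markers were at 0.179 to 0.598 FPKM and endothelial markers at 0.304 to 0.740 FPKM over all libraries. Col1a1 and Thy1 made up most of the stromal sum, and Lyz2 most of the macrophage or dendritic cell sum. Single markers did not all follow their sum. In imDC against control 3 of the 7 stromal markers were higher and 4 lower, namely Pdgfrb, Thy1, Eng and Cd44. In IRDC against control 6 were higher and Pdgfrb was lower. Of all genes tested, 23.1% were higher and 40.1% lower in imDC against control, and 24.5% and 51.5% in IRDC against control. The macrophage or dendritic cell marker Itgam was higher in both treated groups. In bulk RNA, fewer cells of a type and less RNA per cell cannot be told apart.

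Of the 49 members, 30 passed the filter on low levels (12 MMP, 12 ADAMTS, 3 ADAMTS-like and 3 TIMP genes). Most of the 30 changed, in both directions. In imDC 14 were higher and 13 lower than in control, where 23.1% of all genes tested were higher and 40.1% lower. IRDC against control gave 13 higher and 17 lower members, against 24.5% and 51.5% of all genes. IRDC against imDC gave 12 higher and 15 lower members, against 20.2% and 38.6% of all genes. So many genes were called in these libraries that a call alone says little about a member, and size separates the members better. Changes of at least 2-fold on the log2(FPKM + 1) scale (a log2 change of at least 1, which for low genes needs a larger ratio of FPKM) were called for 10 of the 30 (33.3%) in imDC against control, 15 of the 30 in IRDC against control and 7 (23.3%) in IRDC against imDC, where all genes gave 6.87%, 15.8% and 5.14%. Members near zero drop out under the filter, so these shares describe the members expressed here. Among these, Mmp8 passed through its control libraries alone. The median change of the 30 was 0.06 in imDC against control, -0.47 in IRDC against control and -0.22 in IRDC against imDC, beside -0.09, -0.18 and -0.09 over all genes.

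The balance of higher and lower calls over all genes depended on the scaling. With the deposited FPKM 36.6% of the genes called in imDC against control were higher, and TMM-like scaling made this 49.2%. In IRDC against control the share moved from 32.3% to 50.2%, and in IRDC against imDC from 34.4% to 52.0%. That scaling moved the median of all genes in IRDC against control from -0.18 to 0.004, so changes of members smaller than this shift depend on it. Under it the members split into 16 higher and 12 lower for imDC against control, 13 and 17 for IRDC against control, and 13 and 14 for IRDC against imDC.

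**Figure D1:**
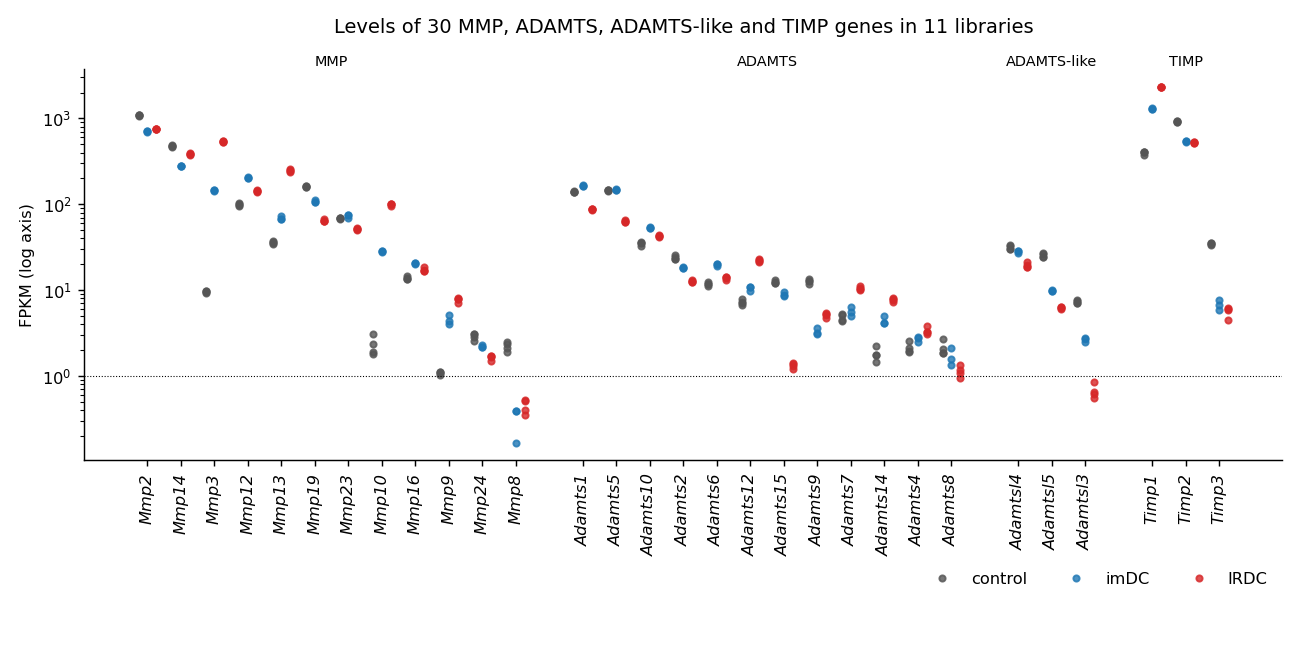
Level of each of the 30 members that passed the filter, in FPKM on a log axis, with 1 point per library (grey control, blue imDC, red IRDC) and the dotted line at 1 FPKM. Mmp3 and Timp1 climb from control over imDC to IRDC with no overlap of groups, and the IRDC points of Adamts15 and Adamtsl3 lie far below the others.

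The 8 members that were higher in imDC than in control and higher still in IRDC were Mmp3, Mmp10, Mmp13, Mmp9, Adamts12, Adamts14, Adamts4 and Timp1. A second group of 7 was lower in imDC and lower still in IRDC, namely Mmp19, Mmp24, Adamts2, Adamts15 and the 3 ADAMTS-like genes Adamtsl3, Adamtsl4 and Adamtsl5. Mmp12, Mmp16, Adamts6 and Adamts10 were highest in imDC and stayed above control in IRDC. Adamts1 and Mmp23 were above control in imDC and below it in IRDC, and Mmp2, Mmp14 and Adamts9 were lowest in imDC. The comparisons with control share the control libraries, and the comparison of IRDC with imDC shares libraries with both. How many of all genes tested follow each pattern was not counted. The patterns therefore only sort the members, and nothing particular to these families is read from their counts.

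**Figure D2:**
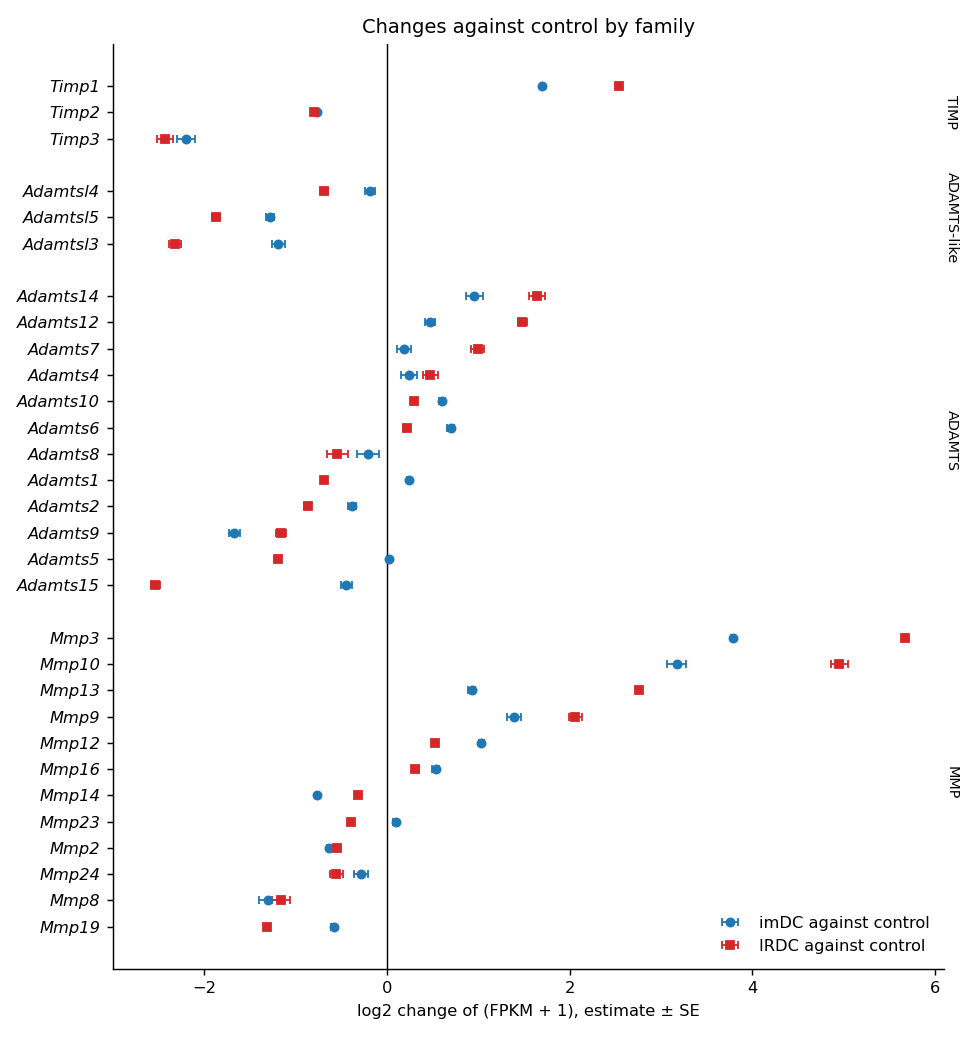
Change of each member against control on the log2(FPKM + 1) scale (x axis), with SE bars, for imDC (blue circles) and IRDC (red squares), ordered within family by the IRDC change. Mmp3 reaches 5.67 and Mmp10 4.95 in IRDC, while Adamts15, Timp3 and Adamtsl3 lie below -2.

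Against control, the stromelysin genes Mmp3 and Mmp10 showed the largest changes of all members on this scale. Mmp3 (ENSRNOG00000032626) encodes stromelysin 1, which cuts proteoglycans and activates other pro-MMPs. Its level was 9.85, 9.31, 9.79 and 9.51 FPKM in the control libraries, 147, 144 and 148 in imDC and 542, 537, 530.3 and 546 in IRDC. No group overlapped another, and the libraries within a group lay close together. Its mean was 15.2-fold the control in imDC and 56.0-fold in IRDC (log2 change 3.79 ± 0.023, adjusted p = 2.1e-17, and 5.67 ± 0.021, adjusted p = 1.1e-19). Between IRDC and imDC Mmp3 differed 3.69-fold (1.87 ± 0.023, adjusted p = 9e-15). By mean level it stood at rank 8 of the 22 MMP genes in control, rank 4 in imDC and rank 2 in IRDC. Mmp10, the gene of stromelysin 2, went the same way from a lower start. It measured 1.91, 3.10, 2.37 and 1.80 FPKM in control, 28.5, 27.8 and 28.7 in imDC and 101, 101, 95.9 and 102 in IRDC, again without overlap. Its mean was 12.3-fold the control in imDC (3.17 ± 0.10, adjusted p = 4.7e-11) and 43.5-fold in IRDC (4.95 ± 0.094, adjusted p = 9.1e-14), and IRDC exceeded imDC 3.52-fold (1.78 ± 0.10, adjusted p = 1.6e-08). The control values of Mmp10 rest on 69, 119, 103 and 66 reads. Mmp11, the stromelysin 3 gene, was listed at 0 in every library. Chchd10, a gene of a mitochondrial protein that overlaps it in the GRCr8 annotation, was also listed at 0 in all 11, so these zeros set no limit on the level of Mmp11.

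Among the collagenases, which cut fibrillar collagen, the expressed gene was Mmp13. Rodents use collagenase 3, its product, as their main interstitial collagenase, and osteoblasts and hypertrophic chondrocytes are known sources. Mmp13 measured 36.0, 35.5, 37.1 and 34.3 FPKM in control, 67.1, 73.4 and 66.8 in imDC and 254, 257, 240.3 and 242 in IRDC. The step from imDC to IRDC (3.59-fold, log2 change 1.83 ± 0.038, adjusted p = 1.3e-12) was larger than the step from control to imDC (1.93-fold, 0.93 ± 0.038, adjusted p = 5.1e-10), and IRDC stood 6.94-fold above control (2.76 ± 0.035, adjusted p = 2.4e-15). Mmp8, the neutrophil collagenase gene, went the other way at a low level. It was at 2.36, 2.11, 2.52 and 1.92 FPKM in control, 0.392, 0.386 and 0.167 in imDC and 0.519, 0.351, 0.510 and 0.401 in IRDC, so that all control libraries lay above all others while imDC and IRDC overlapped. It was 7.07-fold lower in imDC (-1.30 ± 0.10, adjusted p = 3.2e-07) and 5.00-fold lower in IRDC (-1.16 ± 0.096, adjusted p = 2.3e-07) on 8 to 27 reads per library of these groups. Mmp8 passed the filter through its control libraries alone, which favoured calls as lower against control. IRDC and imDC were not called different (0.14 ± 0.10, adjusted p = 0.27), except under quantile normalization (0.48, adjusted p = 0.00091). Of the 6 neutrophil markers, Camp, a cathelicidin gene, passed the filter and went opposite to Mmp8, at 0 to 0.127 FPKM in control, 2.12 to 2.81 in imDC and 4.32 to 4.57 in IRDC (1.67 ± 0.086, adjusted p = 4.4e-09 in imDC and 2.33 ± 0.079, adjusted p = 3e-11 in IRDC against control). Mpo (means of 0.0113, 0.138 and 0.156 FPKM) and S100a8 (0.0313, 0.186 and 0.496) were lowest in control, Elane had at most 1 read in a library, and S100a9 and Ltf had 0. Camp passed the filter through the treated libraries alone, and the part of neutrophils in the Mmp8 levels was not tested. The other collagenase genes were barely read, Mmp1 with 5 reads and Mmp1b with 12 reads over all 11 libraries.

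Mmp12, the macrophage elastase gene, was highest in imDC. It was at 101, 102, 94.8 and 98.4 FPKM in control, 204, 203 and 205 in imDC and 139.7, 147, 142 and 144 in IRDC, and the groups did not overlap. It was 2.06-fold the control in imDC (1.03 ± 0.026, adjusted p = 4.6e-12) and 1.44-fold in IRDC (0.52 ± 0.024, adjusted p = 6.2e-10), and lower in IRDC than in imDC (-0.51 ± 0.026, adjusted p = 5.6e-09). Of the 11 macrophage or dendritic cell markers 7 passed the filter. In imDC against control 3 were higher and 4 lower, in IRDC against control 1 was higher and 6 lower (Adgre1 at 0.0070 instead under TMM-like scaling), and in IRDC against imDC 6 were lower and 1 was not called. Among all genes tested 23.1% were higher and 40.1% lower in imDC against control, and 24.5% and 51.5% in IRDC against control. In IRDC against imDC these shares were 20.2% and 38.6%. Adgre1, the F4/80 gene of macrophages, and Cd74, the invariant chain gene, were highest in imDC as Mmp12 was, at 15.3 ± 0.951, 20.5 ± 0.821 and 13.3 ± 0.357 FPKM and at 2.63 ± 0.589, 6.29 ± 0.454 and 1.68 ± 0.198 FPKM. Itgam, the CD11b gene, was at 5.72 ± 0.249, 7.52 ± 0.436 and 7.12 ± 0.387 FPKM, above control in both treated groups. Lyz2, a lysozyme gene of myeloid cells, was at 515 to 528 FPKM in control, 485 to 508 in imDC and 182 to 189 in IRDC, and Ptprc, the pan-leukocyte CD45 gene, was at 17.6 ± 0.723, 8.48 ± 0.931 and 5.23 ± 0.142. Cd68 (124 ± 2.72, 84.9 ± 5.05 and 69.8 ± 2.22 FPKM) and Csf1r (22.8 ± 0.773, 16.8 ± 0.699 and 12.1 ± 0.523) fell in both steps. The part of leukocytes in the Mmp12 levels was not tested.

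These genes sit side by side. In the RefSeq annotation of rat GRCr8, 10 MMP genes follow each other on chromosome 8 with no other protein-coding gene between neighbours, in the order Mmp13, Mmp12, Mmp1b, Mmp3, Mmp1, Mmp10, Mmp8, Mmp27, Mmp20 and Mmp7. Neighbours within it behaved very differently. Mmp3, Mmp10 and Mmp13 were higher in both treated groups, Mmp12 was highest in imDC and Mmp8 was lower in both. The other 5 genes never exceeded 3 reads in a library. Thus the rise of Mmp3 from 9.62 to 539 FPKM was flanked on both sides by genes, Mmp1b and Mmp1, that stayed at 0 to 0.115 FPKM.

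**Figure D3:**
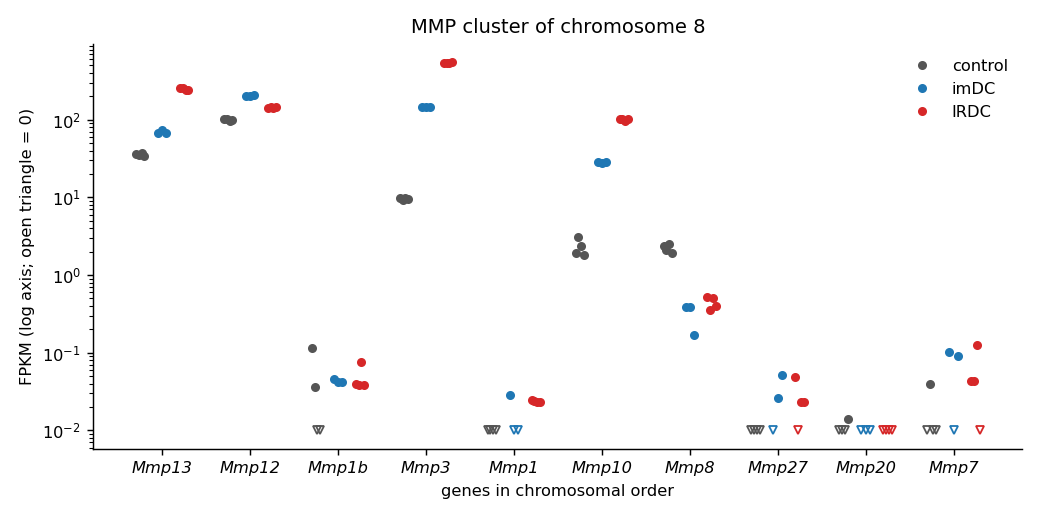
Level in FPKM (log axis) of the 10 neighbouring MMP genes of chromosome 8 in chromosomal order, 1 point per library, with open triangles at the foot for libraries at 0. Mmp3 and Mmp10 span the widest range between groups, and Mmp1b, Mmp1, Mmp27, Mmp20 and Mmp7 lie near or at 0 in all groups.

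Promoters of the 5 expressed cluster genes are shown because these neighbours on the chromosome differ in direction. AP-1, a dimer of Jun and Fos proteins, is a textbook regulator of several MMP promoters and binds letters of the form TGANTCA. Each stretch below covers 110 bases before to 10 bases from the annotated gene start (RefSeq, GRCr8), 5′ to 3′ on the strand of the gene, with matches to TGANTCA in capitals. The stretches are Mmp13 at chr8:12782719-12782838, plus strand, Mmp12 at chr8:12866542-12866661, plus strand, Mmp3 at chr8:12925171-12925290, plus strand, Mmp10 at chr8:12974597-12974716, plus strand and Mmp8 at chr8:13008780-13008899, plus strand.
Mmp13: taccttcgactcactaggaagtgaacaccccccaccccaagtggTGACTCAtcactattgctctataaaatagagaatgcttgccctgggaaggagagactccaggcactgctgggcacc
Mmp12: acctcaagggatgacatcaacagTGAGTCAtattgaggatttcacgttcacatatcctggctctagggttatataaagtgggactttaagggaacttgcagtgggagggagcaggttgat
Mmp3: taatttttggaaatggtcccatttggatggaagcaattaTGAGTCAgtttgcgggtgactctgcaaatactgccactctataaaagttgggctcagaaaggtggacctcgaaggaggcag
Mmp10: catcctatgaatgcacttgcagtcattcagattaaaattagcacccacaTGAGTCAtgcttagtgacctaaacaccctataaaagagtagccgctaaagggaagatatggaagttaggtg
Mmp8: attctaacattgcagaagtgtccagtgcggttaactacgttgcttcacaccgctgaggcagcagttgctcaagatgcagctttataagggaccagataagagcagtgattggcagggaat
The match began 66 bases before the start in Mmp13, 87 in Mmp12, 71 in Mmp3 and 61 in Mmp10. The Mmp8 stretch held none. In windows of 300 bases (250 before and 50 after the start, both strands), 7 of 10 cluster genes held the letters, all but Mmp1b, Mmp8 and Mmp27. The near-silent Mmp1, Mmp20 and Mmp7 are among the 7, so the letters did not separate expressed from silent neighbours. Among the 38 members with a listed promoter, 18.4% held a match, all within the cluster, against 7.33% of 27457 promoters, and none of the 28 members outside the cluster did. Timp1 held none in this window, though it holds the near match TGAGTAA, and such variant letters were not searched. The letters AGGAAG of the ETS family stood in 36.8% of member promoters and 34.3% of all, the hypoxia letters ACGTG in 26.3% and 19.7%, and a 10-letter NF-kB consensus in 0 of 38 and 0.371%. A match is a description of letters, and no binding was measured.

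Gelatinases cut denatured collagen and basement membrane collagen. Mmp2, gelatinase A, was the MMP gene with the highest level in every group and was lower after both treatments, at 1096 ± 16.0 FPKM in control, 706 ± 8.62 in imDC and 749.7 ± 3.86 in IRDC. The change was -0.63 ± 0.015, adjusted p = 2e-12 in imDC and -0.55 ± 0.013, adjusted p = 1.2e-12 in IRDC, and IRDC stood 1.06-fold above imDC (0.087 ± 0.015, adjusted p = 0.00025). Mmp9, gelatinase B, rose from a trace. It measured 1.09, 1.11, 1.12 and 1.03 FPKM in control, 4.00, 5.15 and 4.39 in imDC and 7.06, 8.11, 7.89 and 7.85 in IRDC, with no overlap between groups. It was 4.14-fold the control in imDC (1.40 ± 0.077, adjusted p = 8.6e-09) and 7.09-fold in IRDC (2.06 ± 0.071, adjusted p = 3.5e-11), with 0.67 ± 0.077, adjusted p = 1.1e-05 between IRDC and imDC. Even in IRDC it reached at most 8.11 FPKM, far below Mmp2. Neutrophils and osteoclasts are known sources of Mmp9. The summed level of the 6 neutrophil markers was 0.0158 to 0.268 FPKM in control, 2.42 to 3.17 in imDC and 4.73 to 5.53 in IRDC, mostly Camp, with S100a9 and Ltf at 0. Of the 4 osteoclast markers Acp5 alone was above 1 FPKM, at 7.24 ± 0.411, 24.8 ± 0.417 and 43.7 ± 1.39, while Calcr and Dcstamp had 0 reads in all libraries. Ocstamp had 2 reads over the control libraries, 21 over imDC and 0 over IRDC, so it did not follow Acp5 in IRDC. The part of these cell types in the Mmp9 levels was not tested.

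Membrane-type MMPs work at the cell surface. Mmp14, the collagenase that activates pro-MMP2 there, fell with Mmp2, from 476 ± 6.80 FPKM to 280.5 ± 1.90 in imDC (-0.76 ± 0.018, adjusted p = 3.3e-12) and 382 ± 7.96 in IRDC (-0.32 ± 0.017, adjusted p = 3.1e-09), and was higher in IRDC than in imDC (0.44 ± 0.018, adjusted p = 8.3e-10). Mmp16 was higher in both, at 13.8 ± 0.465, 20.4 ± 0.283 and 17.4 ± 0.808 FPKM (0.53 ± 0.041, adjusted p = 2.2e-07, and 0.31 ± 0.038, adjusted p = 8.8e-06), and lower in IRDC than in imDC (-0.22 ± 0.041, adjusted p = 0.00055). Mmp24, known from nervous tissue, was low and fell from 2.89 ± 0.267 to 2.20 ± 0.0623 and 1.65 ± 0.109 FPKM (-0.28 ± 0.075, adjusted p = 0.0064 for imDC and -0.55 ± 0.070, adjusted p = 1.2e-05 for IRDC). Mmp24 was also lower in IRDC than in imDC (-0.28 ± 0.075, adjusted p = 0.0076), but with quantile normalization this call did not hold (adjusted p = 0.32).

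Mmp19, a secreted MMP that cuts basement membrane proteins, fell step by step. Its level was 160.1, 158, 165 and 163 FPKM in control, 106, 105 and 112 in imDC and 64.2, 63.7, 64.1 and 66.5 in IRDC. Every control library lay above every imDC library and these above every IRDC library. It was lower in imDC (-0.58 ± 0.026, adjusted p = 1.1e-09) and 2.50-fold lower in IRDC (-1.31 ± 0.024, adjusted p = 6.3e-14), with -0.73 ± 0.026, adjusted p = 1.7e-10 between IRDC and imDC. Mmp23, an MMP without the usual hemopexin domain, was at 68.4 ± 0.933, 73.2 ± 3.20 and 51.9 ± 0.873 FPKM. It was slightly higher in imDC (0.096 ± 0.029, adjusted p = 0.012), a call that ended when imDC replicate 1 (adjusted p = 0.059) or imDC replicate 3 (adjusted p = 0.054) was left out. It was lower in IRDC than in control (-0.39 ± 0.027, adjusted p = 3.4e-08) and than in imDC (-0.49 ± 0.029, adjusted p = 2.4e-08).

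Of the 6 proteoglycanases of the ADAMTS family, 5 fell and 1 rose in IRDC against control, where 51.5% of all genes fell and 24.5% rose. In imDC 2 fell, 2 rose and 2 were not called, where 40.1% of all genes fell and 23.1% rose. Adamts1 and Adamts5, which are neighbours on chromosome 11 and cut versican and aggrecan, carried most of the family's level. Adamts5 was at 144, 146, 148 and 148 FPKM in control, 148, 151 and 149 in imDC and 62.7, 62.5, 64.5 and 64.8 in IRDC. Control and imDC overlapped (0.028 ± 0.021, adjusted p = 0.26), and all IRDC libraries lay 2.30-fold lower on average than control (-1.19 ± 0.019, adjusted p = 1.7e-14) and 2.35-fold lower than imDC (-1.22 ± 0.021, adjusted p = 2e-13). Under TMM-like scaling Adamts5 was called slightly higher in imDC than in control (0.12, adjusted p = 0.0004). Adamts1 was higher in imDC and lower in IRDC, at 139.9 ± 1.32, 166 ± 0.776 and 86.5 ± 1.08 FPKM (0.24 ± 0.017, adjusted p = 9.5e-08 for imDC against control, -0.69 ± 0.016, adjusted p = 6.1e-13 for IRDC against control and -0.93 ± 0.017, adjusted p = 4.5e-13 for IRDC against imDC).

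Adamts15 and Adamts8, another pair of neighbours, lie on chromosome 8. Adamts15, a versican-cleaving protease, measured 12.2, 12.4, 13.1 and 12.1 FPKM in control, 9.50, 8.77 and 8.43 in imDC and 1.20, 1.42, 1.31 and 1.38 in IRDC. The loss was small in imDC (-0.44 ± 0.058, adjusted p = 3e-05) and 9.39-fold in IRDC (-2.53 ± 0.054, adjusted p = 2.9e-13), so most of it separated IRDC from imDC (6.71-fold, -2.09 ± 0.058, adjusted p = 1.8e-11). Its IRDC values rest on 149, 181, 172 and 179 reads. Adamts8 was at 2.11 ± 0.386, 1.69 ± 0.403 and 1.13 ± 0.158 FPKM. It was lower in IRDC than in control (-0.54 ± 0.11, adjusted p = 0.00082) and not called in imDC (-0.21 ± 0.12, adjusted p = 0.15), unless imDC replicate 1 was left out (-0.33, adjusted p = 0.041). Its call in IRDC against imDC (-0.33 ± 0.12, adjusted p = 0.034) was lost when imDC replicate 1, imDC replicate 2, IRDC replicate 1, IRDC replicate 2 or IRDC replicate 4 was left out (adjusted p = 0.16, 0.057, 0.083, 0.053 and 0.066), as well as with TMM-like scaling (0.069) or quantile normalization (0.34).

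Adamts9, which cuts versican and aggrecan, was lowest in imDC. It was at 12.9, 11.8, 13.3 and 12.7 FPKM in control, 3.11, 3.61 and 3.19 in imDC and 5.08, 5.30, 4.80 and 5.39 in IRDC, with the IRDC libraries between the other groups and no overlap. It was 3.84-fold lower in imDC (-1.67 ± 0.061, adjusted p = 1.6e-10) and 2.47-fold lower in IRDC (-1.16 ± 0.056, adjusted p = 1.1e-09) than in control, and higher in IRDC than in imDC (0.51 ± 0.061, adjusted p = 1.4e-05). Adamts4, aggrecanase 1, was the proteoglycanase that rose in IRDC, at a low level of 2.12 ± 0.284, 2.68 ± 0.189 and 3.34 ± 0.314 FPKM (0.48 ± 0.081, adjusted p = 0.00017 against control). Its calls in imDC against control (0.24 ± 0.088, adjusted p = 0.031) and IRDC against imDC (0.24 ± 0.088, adjusted p = 0.035) were close to the threshold. The former was lost without control replicate 1, 2 or 4 (adjusted p = 0.054, 0.075 and 0.075) or imDC replicate 1 or 2 (0.083 and 0.098). The latter was lost without imDC replicate 1 or 3 (0.06 and 0.13) or IRDC replicate 1, 2 or 3 (0.055, 0.052 and 0.096). No strand setting is stated for the counting, so reads of a member and of genes that overlap it, which the annotation shows for several ADAMTS genes, cannot be told apart.

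The procollagen N-propeptidases, which trim the amino end of fibrillar procollagens, moved apart. Adamts14 rose from 1.46, 1.73, 2.24 and 1.76 FPKM in control to 4.96, 4.16 and 4.16 in imDC and 8.08, 7.21, 7.83 and 7.64 in IRDC. The groups did not overlap, and its mean was 2.46-fold the control in imDC (0.96 ± 0.091, adjusted p = 1.6e-06) and 4.28-fold in IRDC (1.64 ± 0.085, adjusted p = 2e-09), with 0.68 ± 0.091, adjusted p = 4.2e-05 between the treated groups. Adamts2, the main enzyme of this kind in skin, fell from 24.0 ± 1.26 to 18.2 ± 0.325 and 12.7 ± 0.342 FPKM (-0.38 ± 0.042, adjusted p = 5.8e-06 in imDC, -0.86 ± 0.039, adjusted p = 4.9e-10 in IRDC, and -0.48 ± 0.042, adjusted p = 8.6e-07 between them). Per length, Adamts2 exceeded Adamts14 in all 11 libraries, and its mean was 24.0 against 1.80 FPKM in control and 12.7 against 7.69 in IRDC.

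Adamts7 and Adamts12 cut cartilage oligomeric matrix protein. Adamts12 was at 6.78, 7.20, 7.98 and 7.16 FPKM in control, 10.8, 10.7 and 9.89 in imDC and 22.3, 22.9, 21.3 and 22.0 in IRDC, each group above the one before. It was 1.44-fold the control in imDC (0.47 ± 0.052, adjusted p = 6.8e-06), 3.04-fold in IRDC (1.48 ± 0.049, adjusted p = 2e-11) and 2.12-fold higher in IRDC than in imDC (1.01 ± 0.052, adjusted p = 6.4e-09). Adamts7 was at 4.82 ± 0.473, 5.63 ± 0.691 and 10.6 ± 0.418 FPKM. It was higher in IRDC than in control (0.99 ± 0.074, adjusted p = 7.3e-08) and than in imDC (0.81 ± 0.080, adjusted p = 2.7e-06). In imDC it was not called (0.19 ± 0.080, adjusted p = 0.058), but passed without control replicate 3 or 4 (adjusted p = 0.035 and 0.046), without imDC replicate 2 (0.015), under TMM-like scaling (0.011) and under quantile normalization (0.012). Adamts6 and Adamts10, relatives that act on fibrillin microfibrils, peaked in imDC. Adamts10 was at 34.9 ± 1.52, 53.4 ± 0.771 and 43.0 ± 1.04 FPKM and Adamts6 at 11.7 ± 0.426, 19.7 ± 0.597 and 13.8 ± 0.466. Against control the changes were 0.60 ± 0.034, adjusted p = 1.2e-08 and 0.30 ± 0.032, adjusted p = 2.8e-06 for Adamts10, and 0.70 ± 0.041, adjusted p = 1.6e-08 and 0.22 ± 0.038, adjusted p = 0.00018 for Adamts6. Both were lower in IRDC than in imDC (-0.31 ± 0.034, adjusted p = 8.7e-06 for Adamts10 and -0.48 ± 0.041, adjusted p = 7.6e-07 for Adamts6).

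All 3 expressed ADAMTS-like genes fell in every comparison. Of all genes tested 40.1% fell in imDC against control, 51.5% in IRDC against control and 38.6% in IRDC against imDC. With so few genes, the count alone says little about the family. Adamtsl3 went from 7.41, 7.01, 7.58 and 7.16 FPKM in control to 2.73, 2.52 and 2.66 in imDC and 0.842, 0.649, 0.548 and 0.623 in IRDC, 2.77-fold (-1.19 ± 0.073, adjusted p = 2.5e-08) and 11.0-fold lower (-2.32 ± 0.068, adjusted p = 6.3e-12). Between IRDC and imDC it differed 3.96-fold (-1.13 ± 0.073, adjusted p = 5.2e-08). Adamtsl5 was at 26.1, 24.3, 26.9 and 24.6 FPKM in control, 9.84, 9.81 and 9.96 in imDC and 6.21, 6.29, 6.41 and 6.03 in IRDC. It was 2.58-fold lower in imDC (-1.28 ± 0.043, adjusted p = 8.4e-11) and 4.09-fold lower in IRDC (-1.87 ± 0.040, adjusted p = 3.2e-13), with -0.59 ± 0.043, adjusted p = 1.9e-07 between them. Neither gene had overlapping groups. Adamtsl4, which is known for its part in the fibrillin fibres that hold the eye lens, fell least, from 31.8 ± 1.84 to 27.9 ± 0.847 and 19.4 ± 1.16 FPKM (-0.69 ± 0.048, adjusted p = 4e-08 in IRDC against control and -0.51 ± 0.052, adjusted p = 3.8e-06 against imDC). The small change in imDC (-0.18 ± 0.052, adjusted p = 0.0085) was lost under TMM-like scaling (-0.09, adjusted p = 0.11) and quantile normalization (-0.11, adjusted p = 0.073).

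The 4 inhibitor genes did not move together. Timp1, a secreted inhibitor of most MMPs, rose strongly, whereas Timp2 and Timp3 fell. Timp1 (ENSRNOG00000010208) measured 401, 401, 379 and 401 FPKM in control, 1275, 1286 and 1308 in imDC and 2311, 2300.2, 2299 and 2318 in IRDC. The groups were far apart, with means 3.26-fold (1.70 ± 0.020, adjusted p = 3.3e-15) and 5.83-fold (2.54 ± 0.018, adjusted p = 1.3e-17) the control, and IRDC 1.79-fold above imDC (0.84 ± 0.020, adjusted p = 4e-12). Timp2, which takes part in the activation of pro-MMP2 by MMP14 as well as inhibiting MMPs, was at 925, 910.2, 913 and 929 FPKM in control, 534, 546 and 547 in imDC and 523, 535, 524 and 535 in IRDC. It was 1.70-fold lower in imDC (-0.76 ± 0.015, adjusted p = 5.6e-13) and 1.74-fold lower in IRDC (-0.80 ± 0.014, adjusted p = 4.8e-14). Timp2 was not called between IRDC and imDC, whose libraries overlapped (-0.035 ± 0.015, adjusted p = 0.065). That small difference passed without imDC replicate 1 (-0.046, adjusted p = 0.037) and turned under TMM-like scaling (0.079, adjusted p = 0.011).

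Timp3, the matrix-bound inhibitor that also blocks ADAMTS proteases and the sheddase ADAM17, had 33.4, 34.9, 34.7 and 34.9 FPKM in control, 6.72, 5.93 and 7.63 in imDC and 6.05, 6.26, 5.81 and 4.45 in IRDC. It was 5.10-fold (-2.20 ± 0.095, adjusted p = 8e-10) and 6.11-fold lower than control (-2.43 ± 0.087, adjusted p = 5.4e-11). Its treated groups overlapped and were not called different (-0.23 ± 0.095, adjusted p = 0.056), although they passed without imDC replicate 2, IRDC replicate 1 or IRDC replicate 2 (adjusted p = 0.022, 0.049 and 0.034). Timp4 stood under the filter, at 0.831, 0.966, 1.36 and 0.900 FPKM in control, 0.926, 0.707 and 0.721 in imDC and 0.0287, 0.112, 0.0814 and 0.0274 in IRDC. Its IRDC libraries held 1, 4, 3 and 1 reads, fewer than any other library, which had 23 to 59. In a fit with no filter Timp4 was lower in IRDC than in control (-0.92 ± 0.079, adjusted p = 2.5e-06) and than in imDC (-0.75 ± 0.086, adjusted p = 5.3e-05), and was not called in imDC (-0.17 ± 0.086, adjusted p = 0.16). Timp1, Timp3 and Timp4 are nested in the synapsin genes Syn1, Syn3 and Syn2, which were read at no more than 0.804, 0.398 and 0.0505 FPKM.

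**Figure D4:**
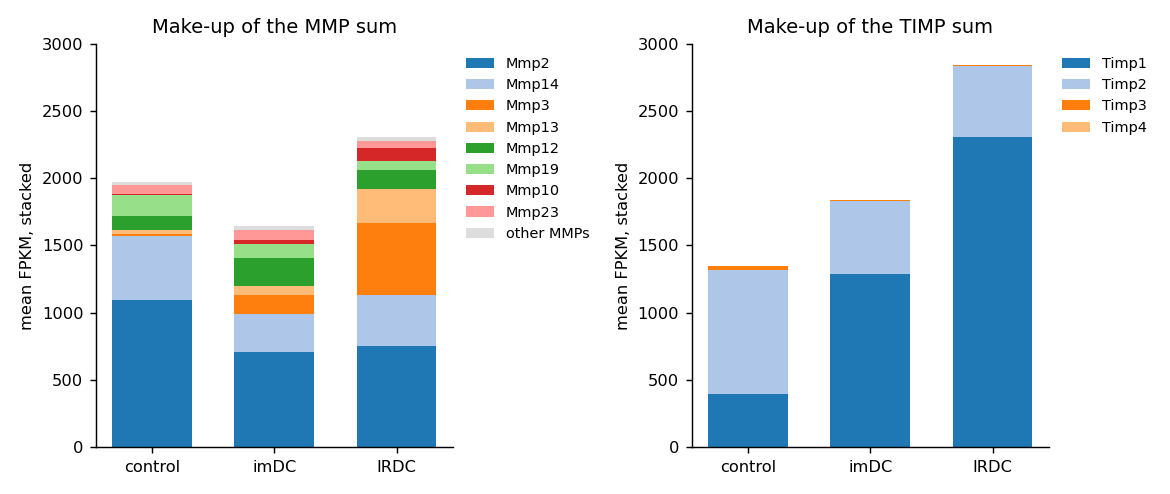
Mean FPKM of MMP genes (left) and TIMP genes (right) stacked by gene for control, imDC and IRDC. Mmp2 shrinks from 55.7% to 32.5% of the MMP sum while Mmp3 grows from 0.488% to 23.4%, and Timp1 grows from 29.3% to 81.2% of the TIMP sum.

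Summed over each family, TIMP transcripts rose in both treated groups through Timp1, while MMP transcripts fell in imDC and rose in IRDC. The 22 MMP genes together had 1969 ± 23.5 FPKM in control, 1642 ± 5.87 in imDC and 2306 ± 16.5 in IRDC. The 4 TIMP genes together had 1350.2 ± 16.8, 1839.8 ± 23.2 and 2842 ± 12.4 FPKM. MMP transcripts per TIMP transcript, as the ratio of these sums, were 1.46 ± 0.0186 in control, 0.893 ± 0.0144 in imDC and 0.811 ± 0.00389 in IRDC, and the groups did not overlap (1.44 to 1.48, 0.879 to 0.907 and 0.809 to 0.817). These ratios are descriptions without a test. They turn on single genes, because Timp1 made up 29.3 ± 0.532% of the TIMP sum in control, 70.1 ± 0.135% in imDC and 81.2 ± 0.182% in IRDC. With Timp1 left out the order reversed, to 2.06 in control, 2.99 in imDC and 4.31 in IRDC. With Mmp2 left out instead the ratios were 0.647, 0.509 and 0.548. The sum of the 19 ADAMTS genes was 401 ± 5.24, 444 ± 1.79 and 272 ± 1.31 FPKM, so ADAMTS per TIMP transcript went from 0.297 ± 0.00760 to 0.241 ± 0.00391 and 0.0956 ± 0.000517.

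**Figure D5:**
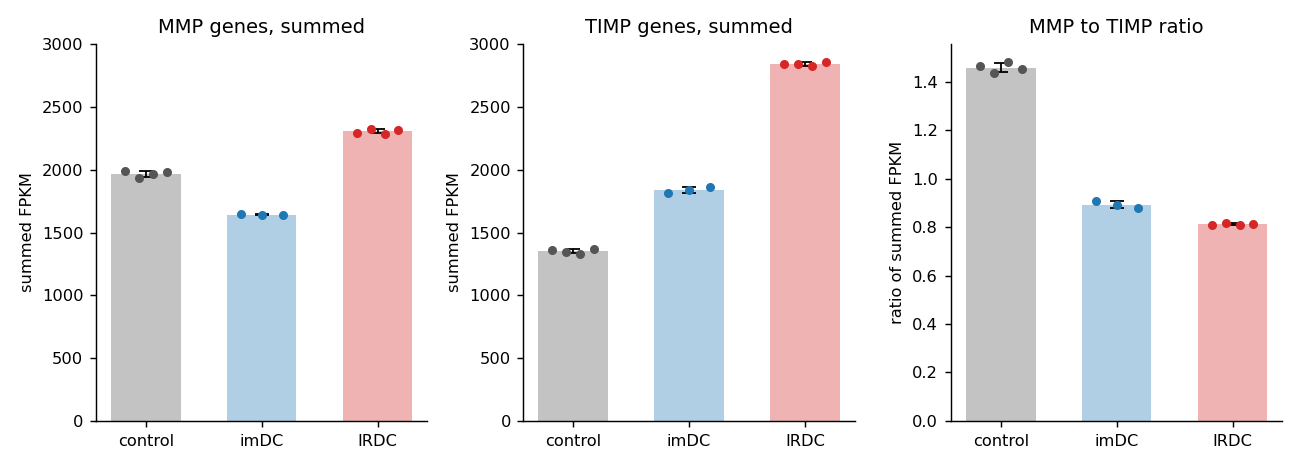
Summed FPKM of MMP genes (left) and TIMP genes (middle) and their ratio (right), with bars for group means, error bars for SD and 1 point per library. The TIMP sum climbs from 1350.2 to 2842 FPKM and the ratio drops from 1.46 in control to 0.893 in imDC and 0.811 in IRDC.

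Pairs that are known to work together gave ratios of their own. Mmp3 per Timp1 transcript rose from 0.0243 ± 0.00115 in control to 0.113 ± 0.00173 in imDC and 0.234 ± 0.00212 in IRDC, so Mmp3 outgrew Timp1 while remaining below it. Mmp13 per Timp1 was 0.0905 ± 0.00527, 0.0536 ± 0.00311 and 0.108 ± 0.00363. Mmp14 per Timp2, partners at the cell surface, was 0.518 ± 0.00421 in control and 0.517 ± 0.00800 in imDC, ranges that overlapped, and 0.722 ± 0.0101 in IRDC. Mmp2 per Timp2 was 1.19 ± 0.00870, 1.30 ± 0.0316 and 1.42 ± 0.0179. Adamts5 per Timp3 was 4.24 ± 0.0496 in control, 22.3 ± 3.05 in imDC and 11.5 ± 2.09 in IRDC, highest in imDC, where Timp3 was low and Adamts5 was near its control level. All of these are transcript ratios, and no protein or enzyme activity was measured.

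The other 19 members did not pass the filter. Of these 12 had at most 5 reads in every library, and 2, Mmp11 and Mmp28, were listed at 0 throughout. Besides Timp4, Mmp15 alone exceeded 0.5 FPKM in any library. Mmp15, a membrane-type MMP, was at 0.577, 0.299, 0.333 and 0.336 FPKM in control, 0.0562, 0 and 0.0893 in imDC and 0.0852, 0, 0.0230 and 0.0233 in IRDC, and the fit with no filter called it lower in imDC (-0.40 ± 0.064, adjusted p = 0.00049) and in IRDC (-0.42 ± 0.059, adjusted p = 0.00012). Adamts3, the remaining procollagen N-propeptidase, was at 0.215 ± 0.0627, 0.417 ± 0.0504 and 0.372 ± 0.0644 FPKM, called higher in that fit in imDC (0.22 ± 0.051, adjusted p = 0.0053) and IRDC (0.18 ± 0.048, adjusted p = 0.0098). Adamts13, which cuts von Willebrand factor in blood, was at 0.335 ± 0.0596, 0.135 ± 0.0870 and 0.210 ± 0.0701 FPKM, called lower in imDC in that fit (-0.23 ± 0.062, adjusted p = 0.011) and not called in IRDC (adjusted p = 0.063). Mmp17, Adamts17 and Adamts20 had at most 23, 9 and 9 reads in a library. The other 10 were Mmp1, Mmp1b, Mmp7, Mmp20, Mmp21, Mmp27, Adamts16, Adamts18, Adamts19 and Adamtsl2, with at most 5 reads in any library.

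Genes that act on the same matrix without belonging to the 3 families were counted from lists of textbook members. Of 11 measured activators and regulators other than TIMPs, 10 passed the filter, and 6 were higher and 2 lower in imDC than in control, and 6 higher and 3 lower both in IRDC against control and in IRDC against imDC. Of all genes tested 23.1% were higher and 40.1% lower in imDC against control, and 24.5% and 51.5% in IRDC against control. In IRDC against imDC these shares were 20.2% and 38.6%. Tfpi2, a Kunitz-type inhibitor of serine proteases, was at 16.3 ± 0.475 FPKM in control, 53.4 ± 0.964 in imDC and 212 ± 5.81 in IRDC (3.62 ± 0.027, adjusted p = 1.8e-17 in IRDC against control). Pcsk5, a proprotein convertase, was at 2.20 ± 0.111, 8.92 ± 0.545 and 17.1 ± 0.483 FPKM (2.50 ± 0.049, adjusted p = 1.2e-13), and its relative Pcsk6 at 6.00 ± 0.473, 3.66 ± 0.213 and 1.31 ± 0.0999 (-1.60 ± 0.067, adjusted p = 2.4e-10). Bsg, also called EMMPRIN for inducing MMPs in fibroblasts, was at 244 ± 5.56, 475 ± 0.949 and 662 ± 3.42 FPKM (1.44 ± 0.016, adjusted p = 6.6e-16). Between IRDC and imDC the largest loss of this list after Pcsk6 was that of Thbs2, a thrombospondin that takes part in MMP2 clearance (-0.95 ± 0.012, adjusted p = 1.8e-14).

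Of the 8 membrane-bound ADAM sheddases, relatives of the ADAMTS enzymes, 2 rose and 4 fell in imDC against control, 3 rose and 4 fell in IRDC against control, and 3 rose and 3 fell in IRDC against imDC. These counts lie near the shares of all genes tested, of which 23.1% rose and 40.1% fell in imDC against control, 24.5% and 51.5% in IRDC against control and 20.2% and 38.6% in IRDC against imDC, and nothing particular to the sheddases is read from them. Adam12 was at 76.5 ± 2.23, 113 ± 2.85 and 231 ± 2.60 FPKM (1.58 ± 0.023, adjusted p = 8.5e-15 in IRDC against control) and Adam8 at 1.61 ± 0.339, 3.47 ± 0.600 and 6.49 ± 0.293 (1.53 ± 0.10, adjusted p = 2.8e-08). Adam33 was lower in IRDC, at 9.32 ± 0.680, 8.70 ± 0.447 and 2.08 ± 0.243 FPKM (-1.75 ± 0.069, adjusted p = 1.4e-10), and so was Adam15 (-0.95 ± 0.060, adjusted p = 1.6e-08). Of 7 astacin and cysteine proteases and their enhancers with enough signal, 1 rose and 6 fell in imDC against control, and 2 rose and 5 fell in IRDC against either other group. Tll1, a tolloid-like procollagen C-proteinase, was at 69.0 ± 0.872, 64.4 ± 1.23 and 30.7 ± 0.799 FPKM (-1.14 ± 0.024, adjusted p = 2.3e-13), and Ctsk, the collagen-cutting cathepsin K, at 214 ± 5.49, 161 ± 0.455 and 129.6 ± 1.33 (-0.72 ± 0.019, adjusted p = 2.6e-12). Under TMM-like scaling Bmp1 (adjusted p = 0.39), Tll1 (0.81), Adam9 (0.4) and Adam19 (0.33) were no longer called in imDC against control. With that scaling Adam10 and Adam19 were called higher in IRDC against imDC (adjusted p = 0.00072 and 0.00047). Ctsl, the 1 that rose in imDC, turned under quantile normalization (-0.031).

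Of 7 proteoglycan and glycoprotein substrates of ADAMTS proteases, 3 had enough signal. Vcan, the versican gene, was at 269 ± 5.04 FPKM in control, 399.7 ± 3.73 in imDC and 424 ± 6.58 in IRDC (0.57 ± 0.018, adjusted p = 5.3e-11 for imDC and 0.65 ± 0.017, adjusted p = 2.2e-12 for IRDC against control). In IRDC it stood above control, as did the versican-cutting Adamts4, while Adamts1, Adamts5, Adamts9 and Adamts15, which also cut versican, stood below. In imDC Vcan also stood above control, with Adamts1 (0.24) and Adamts4 (0.24) higher and Adamts5 not called (0.028). Adamts9 (-1.67) and Adamts15 (-0.44) were lower there. A relation between these levels was not tested. Hapln1, a link protein of hyaluronan, was low, at 1.11 ± 0.139, 0.564 ± 0.0423 and 0.0720 ± 0.0235 FPKM (-0.97 ± 0.085, adjusted p = 3.6e-07). It passed the filter through control libraries alone, which favoured calls as lower against control. Hapln3 was not called in IRDC against control (0.25 ± 0.16, adjusted p = 0.17), and its call in imDC (0.48 ± 0.17, adjusted p = 0.028) was lost without imDC replicate 1 or 2 (adjusted p = 0.081 and 0.068).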

How the data were processed

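The authors deposited FPKM values. The submitters' processing notes name the build rn6 and list the aligner STAR 2.7.1a, the counter HTSeq 0.13.5 and Cufflinks 0.17.3, with cutadapt 1.18, FastQC 0.11.9 and SAMtools 1.3.1 beside them. Strandedness, the handling of reads that map to several paralogs and the tool behind the FPKM step are not given in the sources used here, so near paralogs such as Mmp3 and Mmp10 may share reads. Whole reads were recovered from the FPKM steps for all 21487 genes above 0 (relative tolerance 1e-08, largest error 0.1 read) and served for depth, read counts and an alternative fit. Reads are not corrected for PCR copies, so they are not independent molecules.

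All 11 libraries, grouped by their titles, entered a single limma 3.58.1 fit (R 4.3.3) on log2(FPKM + 1) with a trended prior and no block, over the 12521 genes that reached 1 FPKM in 3 or more libraries, with Benjamini-Hochberg adjustment per comparison. The fit was also run on simulated libraries in which few genes had known changes. Far more genes were called in the data, so that run does not show how the fit behaves here. Named genes are all members, with values in every library for those changed at least 2-fold on that log2 scale in any comparison and for TIMPs, and up to 4 called genes of each related list per comparison with the largest changes. Members and lists were chosen with earlier results of these data known. Family sums and ratios carry no test. Promoters came from RefSeq (GRCr8), matched by symbol for 38 of 49 members, and neighbours and overlaps from its annotation of that build. Alternatives were pseudocounts of 0.1 and 0.5, no filter, a 5 FPKM filter, TMM-like scaling, quantile normalization, voom on recovered reads, no trended prior, a replicate block, fitting the 2 compared groups alone, and leaving out each library. Python 3.11.15, pandas 2.3.3 and matplotlib 3.10.9 were used.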

Additional observations from a re-analysis of the deposited data

Results flagged for a closer look

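In groups of 4 libraries, a library that lay far from the other 3 was looked for by Dixon's criterion at the 95% level (its gap to the nearest other library over the range of the group) in control and IRDC for each of the 30 members. Of 60 such groups 4 passed, and chance alone passes about 1 in 20. Timp1 was 378.8 FPKM in control replicate 3 and 400.7 to 401.2 in the other controls. Timp3 was 33.35 FPKM in control replicate 1 and 34.74 to 34.95 in the others. Adamts1 was 84.86 FPKM in IRDC replicate 4 and 86.93 to 87.11 in the others. Mmp24 was 1.488 FPKM in IRDC replicate 1 and 1.686 to 1.715 in the others. The libraries differ from case to case, and each of these gaps is smaller than the difference of the gene between control and IRDC.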

How the results depend on the processing

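Of 1878 results for single members under alternatives, 1833 kept their direction and call, 28 lost their call, 16 gained one and 1 reversed. Of 90 pairs of member and comparison 78 kept both under every alternative tried. The result that reversed was Timp2 in IRDC against imDC, at 0.0787 under TMM-like scaling. For genes of the related and marker lists, reversals were Lyz2 (0.027) and Cd44 (0.042) in imDC against control under TMM-like scaling, Ctsl there under quantile normalization (-0.031), Adam19 (0.14), Adgre1 (0.0070) and Adam10 (0.030) in IRDC against control under TMM-like scaling, Thy1 there under quantile normalization (-0.14), and Ctsb in IRDC against imDC under TMM-like scaling (0.033). These differences are small, and the cause was not tested beyond the scaling itself.

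With 1 library left out, 12 to 15 members were higher and 13 to 14 lower in imDC than in control, 13 and 17 in IRDC than in control, and 11 to 12 and 14 to 15 in IRDC than in imDC. Of all 12521 genes tested, 2715 to 2892 were then higher and 4652 to 5007 lower in imDC than in control. In IRDC these ranges were 2976 to 3073 and 6256 to 6446 against control, and 2321 to 2536 and 4442 to 4827 against imDC. Over all genes, changes of at least 2-fold in imDC against control numbered 860, and 1328 with a pseudocount of 0.1 and 1390 with voom on recovered reads, which shrinks low genes less. Members with such changes in imDC against control numbered 10, 11 and 11, so their excess over all genes was smaller under these 2 settings. In IRDC against imDC such changes over all genes numbered 644, 1121 and 1203. The MMP to TIMP ratio without Mmp2 was 0.6466 in control, 0.5092 in imDC and 0.5475 in IRDC, and without Timp1 it was 2.062, 2.987 and 4.31. With the stricter letters TGAGTCA 15.8% of member promoters and 4.53% of all promoters held an AP-1 match.

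Deviations of same-numbered libraries correlated at -0.048 to 0.069 over 10 pairs, and those of differently numbered libraries at -0.063 to 0.055 over 30 pairs. The numbers thus showed no sign of pairing, but a shared animal or day with a small effect would not show in this way. With a replicate block 14 members were higher and 13 lower in imDC than in control, 13 and 17 in IRDC than in control, and 12 and 14 in IRDC than in imDC. Over all genes 2839 were higher and 4894 lower in imDC than in control with this block, and 3075 and 6433 in IRDC than in control. Behind the member counts, Adamts4 was no longer called in imDC against control (0.21, adjusted p = 0.073) and Adamts7 was (0.21, adjusted p = 0.047). Adamts8 was no longer called in IRDC against imDC (-0.31, adjusted p = 0.087). Depth limits the members with few reads, such as Mmp8, Timp4 and those under the filter.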
